A study of Mus musculus with 11 samples.

Results

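Dense clusters of distal open regions in MPC2 cells are described here, as mapped by ATAC-seq, an assay that marks stretches free of nucleosomes by the cuts of a transposase. MPC2 cells are 1 conditionally immortalised clonal line of mouse mesenchymal progenitors, so its libraries stand for a single clone. The series holds 11 libraries in 4 groups: 3 of undifferentiated MSCs with vehicle (DMSO), 3 of undifferentiated MSCs with FG-4592, 2 of osteocytes with vehicle and 3 of osteocytes with FG-4592. Cells received 50 uM FG-4592 (Roxadustat), a drug that blocks the prolyl hydroxylases that mark HIF for breakdown, or vehicle alone, for 48 hours, and the osteocytes were MPC2 cells kept for 3 weeks under mineralising conditions. The 94963 regions form a single list pooled over all libraries, with 1 value per region on the log2 CPM scale (cut counts scaled to library size), here called the level; linear values are given as CPM. No library has a value of its own in the list, so neither MSCs and osteocytes nor vehicle and FG-4592 could be compared from it, no replicate error can be given, and the depth is unknown. The paper lists regions whose accessibility differed between such groups, and members were not set against those lists here.

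A region was called distal when it lay more than 1 kb from every transcript start of GENCODE vM21 (mm10). Distal regions were sorted by position and neighbours with a gap of at most 5 kb were chained. Members were chosen by the measured positions of the regions, as those in chains of 5 or more, and chains were then ranked by their summed CPM. Of 68477 distal regions outside chromosome 16, 3380 were members, in 587 dense chains, which is 4.94% (95% Wilson interval 4.78 to 5.10). The other distal regions were 30928 in chains of 2 to 4 and 34169 single regions, and 21537 regions lay within 1 kb of a start. Chromosome 16, which held 50.4 distal regions per Mb against 18.9 to 44.3 on the 18 other autosomes, was counted apart, with 355 members in 61 chains. The position rule fixes how the members lie, so their gaps and chain sizes are given as a description. All intervals cover counting error only, and regions of a chain share a locus and are not independent.

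Enhancers are stretches of DNA, often far from the gene they act on, where transcription factors bind and displace nucleosomes. Enhancers that lie close together along the genome, also called stretch enhancers or super-enhancers when they carry strong marks, are known to sit near genes that define a cell's identity, and in mesenchymal cells such genes include those of the extracellular matrix. An open region is not by itself an enhancer, since insulators bound by CTCF and promoters that are not annotated are open too, and the nearest gene need not be the one acted on. Of the cell type markers, 10 of 11 mesenchymal or osteogenic genes had an open region within 1 kb of a coding start, with levels from 2.33 (Alpl) to 6.14 (Pdgfra), and Phex had none. Of 17 markers of other lineages 4 had such a region, at levels from 1.89 (Pecam1, endothelium) to 3.38 (Spi1, blood). Of the 11 mesenchymal or osteogenic markers, 5 were the nearest coding gene of a dense chain (Runx2, Prrx1, Col1a1, Pdgfrb and Alpl), and of the 17 others none was, beside 2.58% of all coding genes outside chromosomes 16 and Y. At that share a count of 0 in 17 says nothing about those markers. The share among all coding genes also rose with the space around a gene, from 0.28% in the lowest quartile to 5.56% in the highest. The space around the markers was not taken into account. Of 21646 coding genes 63.2% had an open region within 1 kb of a coding start.

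The sequences of 3 sets of members are given as examples, the first 2 of which were picked for the motif they carry and are not typical of dense chains. The coordinates are of mm10, the letters are those of the plus strand of the GRCm38.p6 reference (RefSeq), and no letters come from the cultures. The first set is from the chain named for Col6a3, a chain of collagen VI, because 4 of its 12 regions carry an AP-1 match within the central 200 bp. AP-1 is the Fos and Jun family of factors, and the capitals mark its TGACTCA or TGAGTCA site.
Col6a3 chain, chr1:90719102-90719168: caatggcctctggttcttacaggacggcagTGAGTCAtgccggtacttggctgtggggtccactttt
Col6a3 chain, chr1:90729571-90729637: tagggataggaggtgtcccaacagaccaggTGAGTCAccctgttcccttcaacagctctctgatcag
Col6a3 chain, chr1:90738320-90738386: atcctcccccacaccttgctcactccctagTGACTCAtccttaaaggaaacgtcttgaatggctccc
Col6a3 chain, chr1:90739507-90739573: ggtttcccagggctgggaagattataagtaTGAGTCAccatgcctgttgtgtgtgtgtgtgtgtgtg

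The 4 sites lay in regions with levels of 2.69, 3.07, 2.99 and 1.33, all intergenic, and the strongest region of the chain, at 4.63, had its AP-1 match outside the central 200 bp. The next set is from the chain with the highest sum, named for Lrrc74a, because 3 of its 11 regions carry a CTCF match, marked in capitals. CTCF is the insulator protein that anchors chromatin loops.
Lrrc74a chain, chr12:86769165-86769236: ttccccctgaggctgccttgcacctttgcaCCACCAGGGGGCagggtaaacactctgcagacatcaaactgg
Lrrc74a chain, chr12:86772223-86772294: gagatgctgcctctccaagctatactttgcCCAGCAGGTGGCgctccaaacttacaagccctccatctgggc
Lrrc74a chain, chr12:86779815-86779886: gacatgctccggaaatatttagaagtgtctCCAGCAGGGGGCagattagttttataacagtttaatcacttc

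These 3 regions had levels of 2.14, 3.19 and 1.76, below the chain's median level of 3.77. All 3 matches lay on the plus strand. The last set gives the central 200 bp of the strongest region of 4 chains, with capitals on matches to AP-1 or to ACGTG or GCGTG on either strand, the core of the hypoxia response element (HRE) that HIF binds.
Lrrc74a chain, chr12:86801610-86801809: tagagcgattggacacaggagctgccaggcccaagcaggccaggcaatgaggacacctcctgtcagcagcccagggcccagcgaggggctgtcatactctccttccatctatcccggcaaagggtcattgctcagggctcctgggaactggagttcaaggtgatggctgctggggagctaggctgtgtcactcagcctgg
Itgb3 chain, chr11:104625521-104625720: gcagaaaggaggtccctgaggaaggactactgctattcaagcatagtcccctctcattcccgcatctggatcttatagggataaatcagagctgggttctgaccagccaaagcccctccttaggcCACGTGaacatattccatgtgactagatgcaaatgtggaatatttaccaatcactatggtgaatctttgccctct
Col1a1 chain, chr11:94916528-94916727: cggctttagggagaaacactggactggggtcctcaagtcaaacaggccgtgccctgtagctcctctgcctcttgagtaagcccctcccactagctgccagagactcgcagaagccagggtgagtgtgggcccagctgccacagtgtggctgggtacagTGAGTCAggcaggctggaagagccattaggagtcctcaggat
Runx2 chain, chr17:44600129-44600328: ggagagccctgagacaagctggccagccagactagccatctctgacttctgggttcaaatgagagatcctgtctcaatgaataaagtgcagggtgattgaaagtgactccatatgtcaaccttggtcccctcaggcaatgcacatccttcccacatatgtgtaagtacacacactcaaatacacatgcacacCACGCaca

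The strongest region of the Itgb3 chain, at a level of 5.77, held a TEAD match and a CACGTG palindrome, which matches the HRE core on both strands. That is a match of letters only, since binding of HIF was not measured here. The centre of the Col1a1 region held an AP-1 match, that of the Runx2 region a single HRE core, and that of the Lrrc74a region neither. Core matches of 5 letters are frequent in any sequence, and their share among members is given with the motifs.

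Dense chains were mostly short. Of the 587 chains, 352 had 5 regions, 131 had 6, 48 had 7, 34 had 8, 7 had 9, 7 had 10, 5 had 11, 1 had 12 and 2 had 13. The chains with the most members were those named for Loxl1 and Iqsec1, with 13 each, and Col6a3, with 12. The span of a chain ran from 3.76 to 40.4 kb with a median of 12.9 kb, and all spans together covered 8.06 Mb. Open regions took up a median of 22.01% of the span. The 2793 gaps within chains had a median of 2183 bp (quartiles 819 and 3594 bp), from 13 to 5000 bp, and 17.0% (15.7 to 18.4) were under 500 bp. With regions less than 500 bp apart joined into 1 beforehand, 2046 members were left. At the limits of the rule, 240 gaps lay in the last 500 bp inside the limit and 65 gaps next to a dense chain in the first 500 bp beyond it, and 931 chains had 4 regions.

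Members had higher levels than the other distal regions. The median level was 2.33 (2.27 to 2.37) in members, 2.00 (1.98 to 2.01) in chains of 2 to 4 and 1.77 (1.76 to 1.79) in single regions, a difference of 0.55 log2 CPM between members and single regions. By chain size the median went from 1.77 in single regions through 1.95, 2.07 and 2.11 in chains of 2, 3 and 4 to 2.25 in chains of 5, and it was 2.76 in chains of 9 or more. The sizes next to each other from 5 upward had overlapping intervals. Members were also a little wider (median 427 bp against 399 bp in single regions). Within bins of regions of similar, not equal, width the difference was 0.41, with members higher in 19 of 19 bins. Members were higher on 19 of 19 chromosomes, by 0.29 to 0.81 on the 18 with at least 50 members. They held 6.46% of the CPM of all distal regions on 5.06% of their width. The level did not choose the members, but a region had to pass the peak caller to be in the list, and the level was not tested apart from that step.

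**Figure D1:**
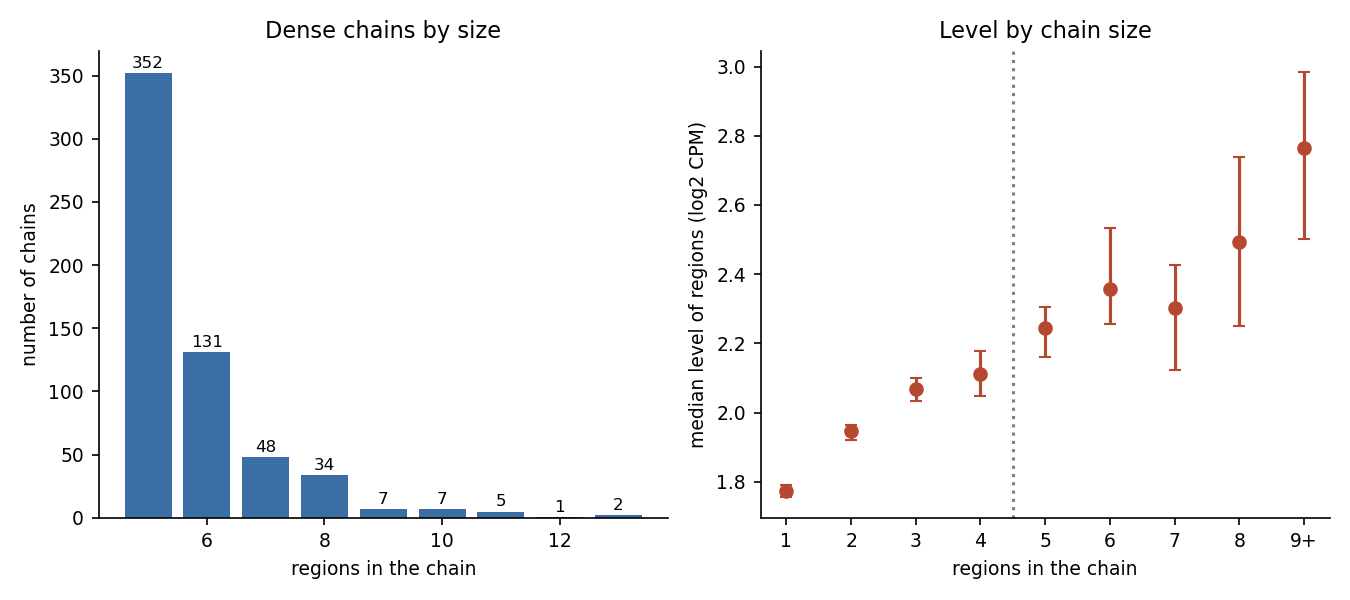
Left, number of dense chains (bars) by the number of regions in the chain, outside chromosome 16; 352 of 587 have 5 regions. Right, median level of distal regions in log2 CPM by chain size (points) with 95% intervals (bars); the dotted line marks where dense chains begin, and the median goes from 1.77 in single regions to 2.76 in chains of 9 or more.

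Levels varied widely inside a chain. The strongest and weakest region of a chain differed by a median of 2.70 log2 CPM, and the strongest held a median of 37.7% of the chain's sum (15.1 to 79.1%). In 95 chains a single region held more than 50% of the sum. The strongest region was at an inner position in 62.2% of chains, where inner positions made up 64.1% of all. Neighbouring members had weakly related levels, with a Pearson correlation of 0.253 over 2793 adjacent pairs (Spearman 0.251), against 0.233 in chains of 2 to 4. The pairs share their libraries, their chains and, in part, their members, so this is a description only. The sum of a chain followed its strongest region (Spearman 0.927 over 587 chains) more than its number of regions (0.377), both of which are parts of the sum.

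By position, 50.2% of members lay in introns, 43.2% between genes and 6.57% in exons, against 47.4%, 43.0% and 9.60% of single regions. Members of chains of 7 or more were intergenic in 48.6%. Of the 587 chains, 258 (44.0%) lay inside the body of a single coding gene, 250 (42.6%) touched no coding gene and 79 lay partly in genes. The nearest coding start was a median of 18.3 kb from the chain (quartiles 6.43 and 44.9 kb), and 50 chains were more than 100 kb from any. In 33 chains the members flanked a region at a transcript start. The centres of members had a median G and C content of 50.5% against 48.5% in single regions, and 11.6% of their bases were repeats by the soft mask of the reference against 13.4%. Windows between members of the same chains, 2221 in all, held 25.5% repeat bases. With CpG-rich taken here as at least 55% G and C and a CpG ratio of at least 0.6, only 49 members (1.45%) had a CpG-rich centre. The share was 1.64% of single regions.

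The sums of the 587 chains ran from 9.24 to 251 CPM with a median of 38.8 (quartiles 24.9 and 60.9), and the 58 highest held 25.8% of the total. Each chain is named by its nearest coding gene, which is a matter of distance and says nothing of what the chain acts on. The 20 highest chains included 13 that touched no coding gene and 2 inside a single one, Bahcc1 and Itgb3.

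**Figure D2:**
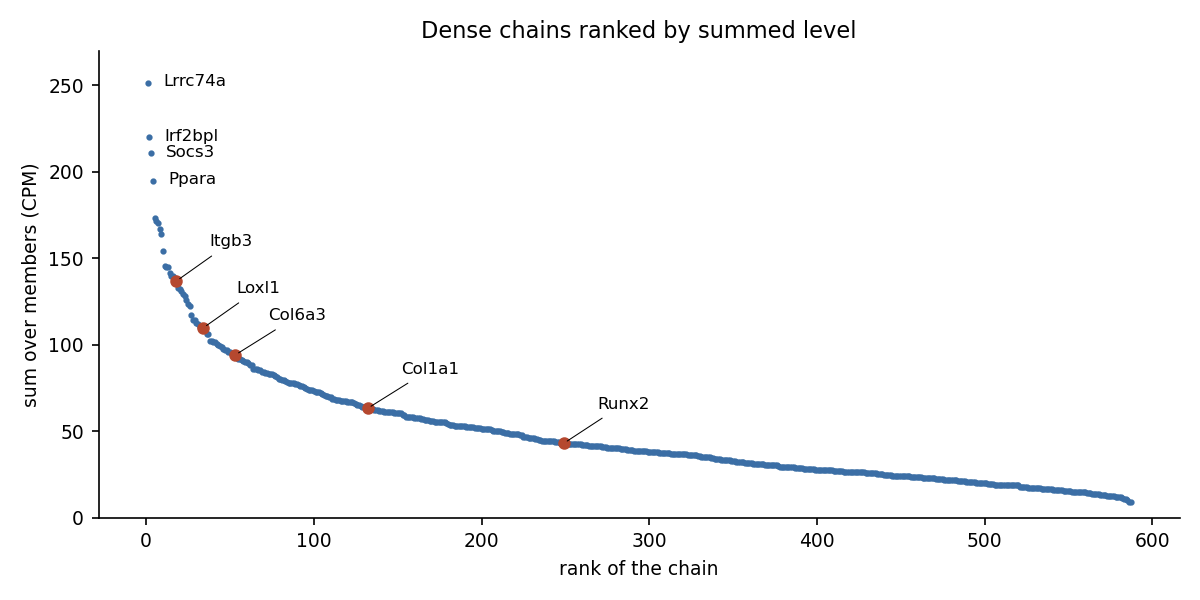
Summed CPM over members (vertical axis) of the 587 dense chains outside chromosome 16 by rank (horizontal axis), 1 point per chain. The 4 highest, from 251 CPM for Lrrc74a to 195 for Ppara, and 5 chains of matrix, adhesion and bone genes (larger points) carry the name of their nearest coding gene.

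The 2 highest chains were neighbours. The first, chr12:86769068-86802674, was intergenic and 34.7 kb from Lrrc74a, with 11 regions over 33.6 kb and a sum of 251 CPM. Its levels, from start to end, were 2.14, 5.45, 3.19, 3.77, 1.76, 3.15, 4.32, 4.91, 4.11, 3.11 and 6.53, so the last region was the strongest, with 36.7% of the sum. The second, chr12:86823784-86837063, lay 47.7 kb from Irf2bpl, a transcriptional co-regulator, and had 7 regions and a sum of 220 CPM. Its levels were more even, at 5.00, 5.07, 5.96, 3.07, 5.57, 2.30 and 4.96, and 3 of the 7 regions had an AP-1 match in the centre where the first chain had none, though over whole regions both chains had 3 regions with a match. A further chain of 5 regions with a start of Irf2bpl within its span (164 CPM, rank 9) and another chain near Vash1 made up a group of 4 chains with gaps of at most 100 kb. That group held 28 regions over 215 kb and 663 CPM. In all, 127 of the 587 chains (21.6%) lay in 58 groups of neighbours, of which 8 had 3 or more chains and the others were pairs. The other groups of 4 chains were at Csf1 and Eps8l3 (26 regions, 232 CPM) and at Galk2, Fgf7 and Fam227b (20 regions, 114 CPM). Csf1 is the macrophage colony-stimulating factor, which osteoclast precursors need, and Fgf7 is a fibroblast growth factor made by mesenchymal cells.

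The third chain, chr11:117932076-117964166, ended 5.02 kb from Socs3, the feedback inhibitor of cytokine signalling through STAT3. Its 11 intergenic regions had a sum of 211 CPM and levels of 4.40, 4.30, 3.94, 3.14, 4.84, 2.98, 4.99, 3.24, 2.15, 3.19 and 5.77. The strongest was the last, the one nearest to the gene. The fourth, 47.6 kb from Ppara, the fatty acid receptor of the nucleus, had 8 intronic regions and a sum of 195 CPM, and the non-coding genes Lncppara and Gm49539 overlapped it. Here 3 broad regions of 2745, 2071 and 1268 bp had levels of 6.48, 5.61 and 5.33, and the remaining 5 were between 0.75 and 2.36.

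Chains 6 and 7 were both nearest to Haao, an enzyme of tryptophan breakdown, at 132 and 33.4 kb, with 5 and 10 regions and 171 CPM each. Trim8, a ubiquitin ligase, had a start inside its chain of 7 regions (167 CPM), where the strongest region held 57.9% of the sum. The chains ranked 10 to 17 were named for Trmt61a (154 CPM), Bahcc1 (146), Gsn (145), Rgs3 (145), Olfr1423 (142), Arsi (140), Pisd (140) and Cirbp (139). Gsn is the actin-severing protein gelsolin, Rgs3 dampens G protein signals and Cirbp is an RNA-binding protein induced by cold. Olfr1423 is an olfactory receptor gene that is merely the nearest, at 23.1 kb, with Osbp, a sterol carrier, as the next. In the Olfr1423 and Arsi chains a single region held 64.9% and 63.7% of the sum, while in the Rgs3 and Pisd chains the strongest held 19.6% and 19.8%.

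The chains ranked 18 to 20 were nearest to genes of adhesion and the cytoskeleton. The Itgb3 chain, chr11:104611475-104628417, lay in introns of Itgb3, the beta 3 integrin through which cells bind vitronectin and osteopontin. Its 7 regions had a sum of 137 CPM and levels of 4.53, 2.25, 2.68, 1.89, 3.81, 5.77 and 4.92, and 4 of them held an AP-1 site somewhere along their length. The chains of Tns3, a focal adhesion protein, and Myh9, the heavy chain of non-muscle myosin, each had 8 intergenic regions and sums of 133 and 132 CPM. Both genes had a second chain, with 82.5 CPM at Tns3 and 90.1 CPM in the body of Myh9.

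The chains with the most regions were not the highest. That of Loxl1, a lysyl oxidase that cross-links elastin and collagen, held 13 regions over 40.4 kb (110 CPM, rank 34). Of the 13, 9 lay inside the gene. Its strongest region, the first, at 4.76, was intergenic and by itself was nearest to another coding gene, Stoml1. The chain in the introns of Iqsec1, an exchange factor for ARF proteins, held 13 regions over 27.9 kb (88.5 CPM, rank 62), none above 3.74. The Col6a3 chain held 12 regions over 36.1 kb, 89.0 kb from the start of the gene, and 94.1 CPM (rank 53). Its levels were 2.69, 2.33, 2.28, 3.07, 2.27, 2.99, 1.33, 4.63, 1.86, 2.89, 1.92 and 3.87.

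**Figure D3:**
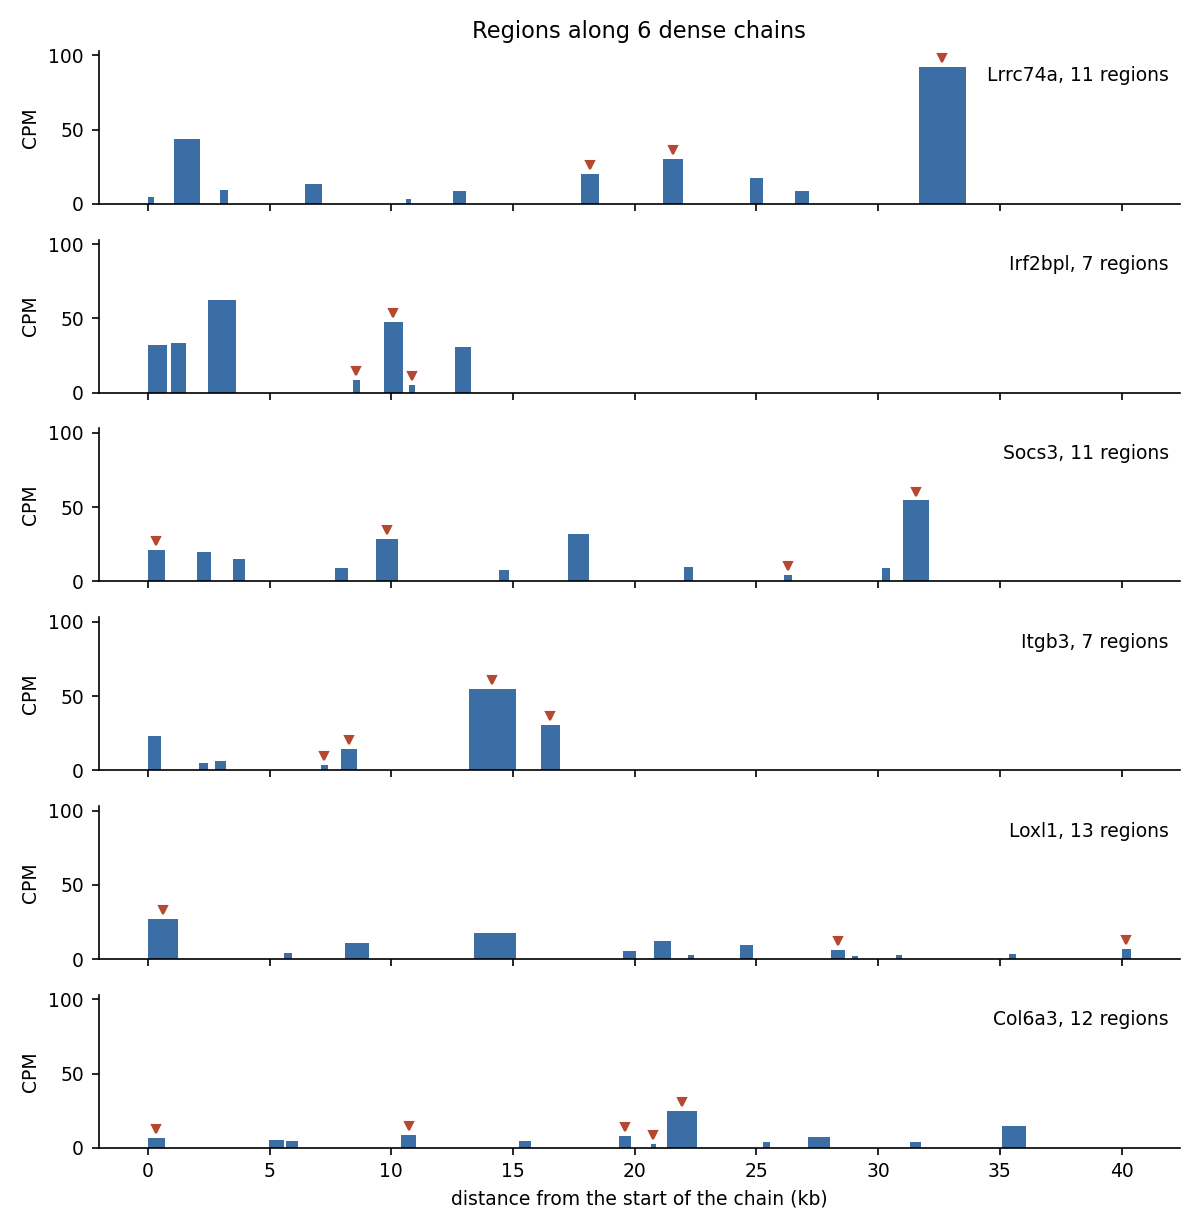
Regions of 6 dense chains, each drawn to scale as a bar of its width (horizontal axis, kb from the start of the chain) with its CPM as the height; triangles mark regions with an AP-1 match anywhere. The strongest region is the last one in the Lrrc74a and Socs3 chains and an inner one in the Irf2bpl, Itgb3 and Col6a3 chains.

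Named genes also included many of the bone and mesenchymal cell. In all, 543 of 21066 coding genes outside chromosomes 16 and Y were nearest to a dense chain, which is 2.58%, and of these 501 had 1 chain, 40 had 2 and 2 (Csf1 and Zfp36l1) had 3. The share went with the space around a gene, from 0.28% of the genes with the nearest neighbours (the lowest by quartile) to 5.56% of those with the most distant ones. Of 293 genes in 7 lists on bone, connective tissue, signalling and oxygen sensing, 61 (20.8%) were nearest to a dense chain. The lists were drawn up with other results of these data known, so the share is a description. The listed genes also have more space than others, with a median distance between flanking coding starts of 241 kb against 93.8 kb for all genes. Among all coding genes the share was 3.11% in the third quartile of space (median 136 kb) and 5.56% in the highest (median 434 kb), which lie on either side of the lists' median.

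Among bone and connective matrix genes the share was 15 of 51 (29.4%, 18.7 to 43.0). The highest chains were those of Timp2, an inhibitor of matrix metalloproteinases (117 CPM), Loxl1 and Col6a3, followed by Col6a2 (65.4 CPM), Col1a1 (63.3) and Col5a1 (61.2). Col1a1 encodes the main chain of type I collagen, the bulk protein of bone, and its chain of 5 regions lay 14.8 kb from the start of the gene. The median space around the matrix genes was 198 kb. Among growth factor signalling genes the share was 20 of 70 (28.6%, 19.3 to 40.1), with a median space of 368 kb. The highest were Lif (110 CPM), a cytokine of the interleukin 6 family, Smad7 (109), which inhibits TGF-beta signalling, and Pdgfrb (106), the PDGF receptor of mesenchymal cells, and then Cxcl12 (94.9), Csf1 (74.3) and Egfr (59.6). This Cxcl12 chain lay 144 kb from the nearest coding start of Cxcl12. Cytoskeleton and adhesion genes, with a median space of 221 kb, gave 11 of 46 (23.9%, 13.9 to 37.9), with Palld (85.8 CPM), Itga11 (73.9), a collagen-binding integrin, and Cav2 (67.8) after Itgb3, Tns3 and Myh9.

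Transcription factors of the mesenchymal and osteogenic lineages gave 9 of 51 (17.6%, 9.57 to 30.3). These genes had the most space of the 8 lists, a median of 657 kb, above the 434 kb of the highest quartile of all coding genes with its share of 5.56%. The highest were Snai1 (77.2 CPM), Zeb2 (63.1), Klf4 (62.3), Dlx3 (49.7), Runx2 (43.1) and Hif1a (38.8). The Klf4 chain lay 198 kb from the nearest coding start of Klf4. Runx2 is the master regulator of bone formation, and its 6 regions lay inside the gene, 134 kb from its nearest coding start. Hif1a, the oxygen-regulated subunit of HIF, was kept in this list, and its 6 regions lay 53.3 kb away. The AP-1 subunits gave 2 of 14, Fos (96.9 CPM) and Fosl2 (26.6), and the Hippo pathway gave 3 of 23, Amotl2 (106 CPM), Vgll4 (95.7) and Nf2 (14.97). The Fosl2 chain lay inside Babam2, 79.4 kb from the nearest coding start of Fosl2. Hypoxia targets and oxygen sensors gave 1 of 38 (2.63%, 0.47 to 13.5), next to 2.58% of all coding genes, and the gene was Hk2, a hexokinase (51.6 CPM). Of 40 genes that mark other lineages none was nearest to a dense chain (95% Wilson interval up to 8.76%), so their share cannot be told from that of all coding genes.

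**Figure D4:**
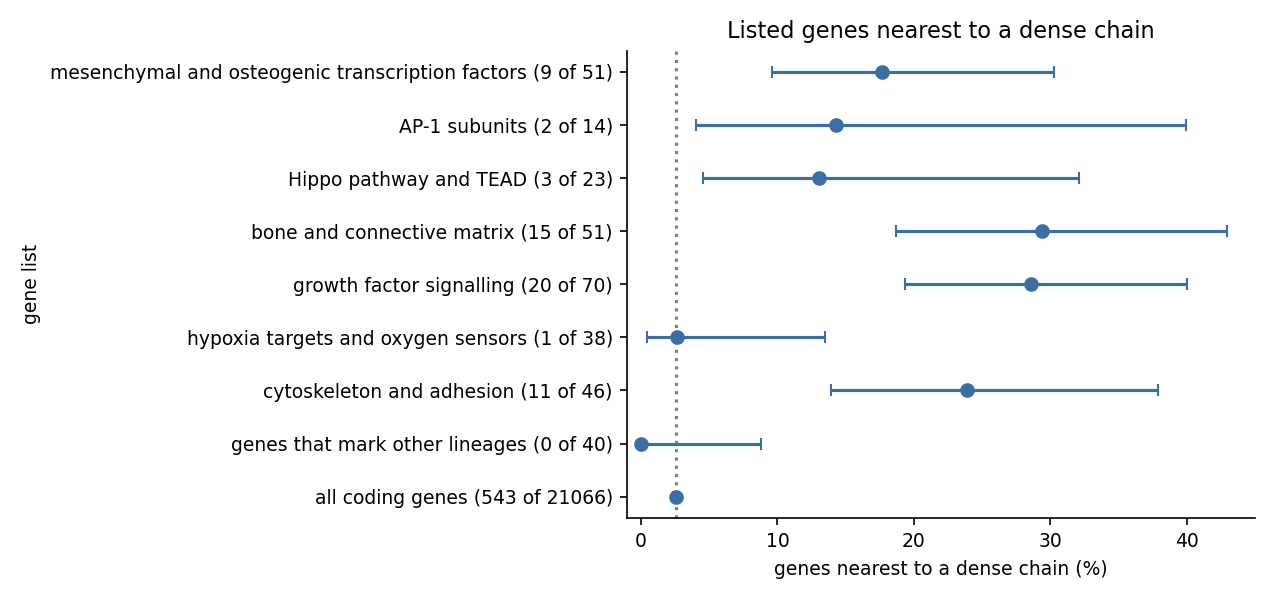
Share of listed coding genes nearest to a dense chain (points, percent on the horizontal axis) with 95% Wilson intervals (bars), 1 row per list with the counts behind it; the dotted line is the share of all coding genes, 2.58%. The matrix, growth factor and cytoskeleton lists lie at 23.9 to 29.4%, and the hypoxia list lies on the line.

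Sequence was not used to choose the members, and 14 motifs were searched on both strands in the central 200 bp of every region. AP-1 (TGACTCA or TGAGTCA) was found in 14.8% of members (13.6 to 16.03), 14.1% of regions in chains of 2 to 4, 14.1% of single regions (13.7 to 14.4) and 12.1% of all 94963 regions. Members and single regions thus had overlapping intervals, and members were higher on 10 of 18 chromosomes. Windows between members had 3.78% (3.07 to 4.66). Of the 587 chains, 347 (59.1%) had an AP-1 match in the centre of at least 1 member and 25 had it in 3 or more. By quartile of level, from the lowest, AP-1 was in 8.12% of members (6.04 to 10.8) against 11.4% of single regions (10.8 to 12.1), then in 17.98% (15.4 to 20.9) against 15.4% (14.6 to 16.2), in 15.1% against 14.8% and, in the highest, in 15.4% against 15.1%. Members were thus lower in the lowest quartile and higher in the other 3, and the intervals of members and single regions overlapped in each of the 4.

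CTCF matches were fewer in dense chains. They were found in 2.72% of members (2.22 to 3.33), 3.45% of regions in chains of 2 to 4 (3.25 to 3.66), 4.55% of single regions (4.34 to 4.78) and 3.42% of all regions. The share was lower in members than in single regions on 17 of 18 chromosomes and in each of the 4 quartiles of level. In the second quartile it was 3.60% against 7.50%, in the third 5.25% against 5.80% and in the highest 0.99% against 1.96%, with overlapping intervals in the third and the highest. Of the 587 chains, 83 (14.1%) had any CTCF match, and among the 20 highest it was the Lrrc74a chain alone, with the 3 sites printed above.

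TEAD matches (GGAATG), which the factors of the Hippo pathway bind, were in 16.4% of members (15.2 to 17.6), 15.4% of single regions (15.02 to 15.8), 10.8% of windows between members and 14.0% of all regions. The share was 18.9% (16.4 to 21.7) in chains of 7 or more and 15.5% (14.2 to 17.0) in chains of 5 or 6. Members were higher than single regions on 14 of 18 chromosomes, with overlapping intervals overall. By quartile of level, from the lowest, TEAD was in 13.5%, 17.2%, 16.9% and 16.7% of members against 14.6%, 14.95%, 15.7% and 16.5% of single regions, with overlapping intervals in each. RUNX matches (AACCACA), the site of Runx2, were in 9.11% of members (8.19 to 10.1), 10.2% of single regions (9.84 to 10.5), 6.03% of windows between members and 8.57% of all regions. GC boxes (GGGCGG) were in 6.48% of members, 5.36% of single regions, 2.93% of windows between members and 12.2% of all regions, which include promoters. E-boxes (CAGATG) were in 18.5%, 17.9%, 16.2% and 16.5%. HRE cores (ACGTG or GCGTG) were in 19.3% of members (17.97 to 20.6), 19.6% of single regions and 19.9% of windows between members, and in 24.2% of all regions, so the interval of members held the shares of single regions and of the windows. The remaining 7 motifs, TCF/LEF (CTTTGAT), homeodomain (TAATTA), CRE (TGACGTCA), C/EBP (TTGCNNAA), ETS (CCGGAAG), GRE and NFI, differed by at most 0.62 percentage points between members and single regions.

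**Figure D5:**
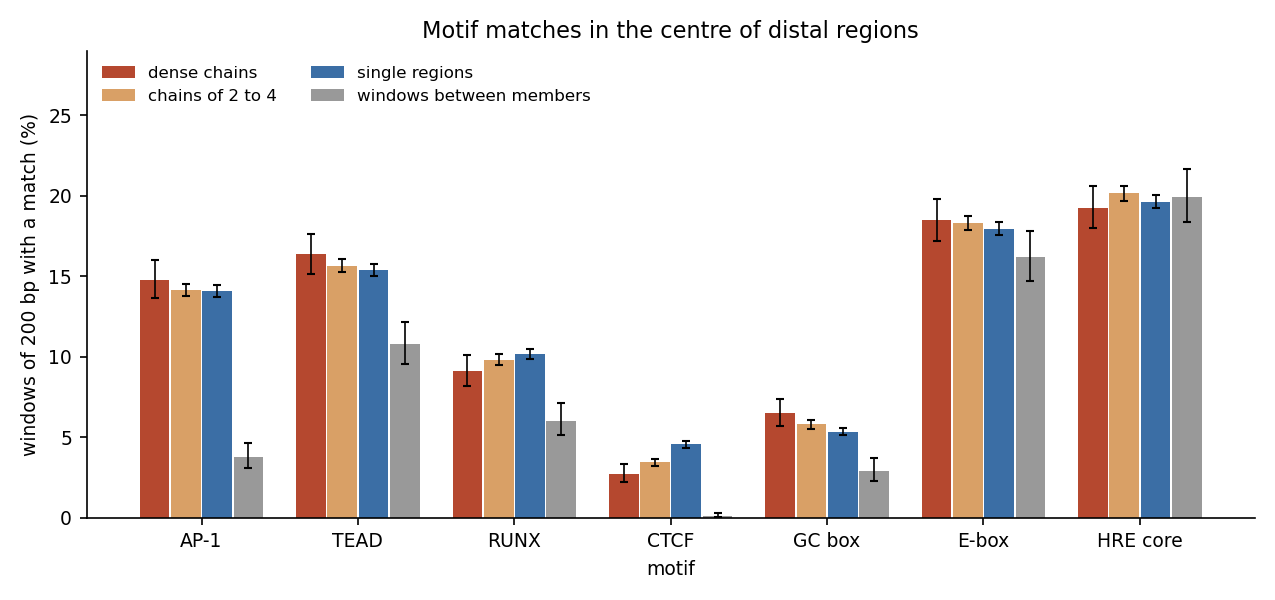
Share of 200 bp windows with at least 1 motif match (bars, percent) with 95% Wilson intervals (lines), in members of dense chains, regions of chains of 2 to 4, single regions and windows between members. AP-1, RUNX and TEAD are more frequent in regions than between them, CTCF goes from 2.72% in members to 4.55% in single regions, and HRE cores are level at 19.3 to 20.1%.

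On chromosome 16, 355 of 4949 distal regions (7.17%, 6.49 to 7.93) were members, and its 0.62 dense chains per Mb stood above the 0.14 to 0.55 of the 18 other autosomes. The median level of its members was 2.13 (1.96 to 2.31) against 1.41 (1.35 to 1.497) in its single regions, both below the pooled medians of the other chromosomes (2.33 and 1.77), while chromosome 13 had a member median of 2.12. AP-1 was in 11.3% of its members (8.38 to 14.98) and 8.78% of its single regions, and CTCF in 3.38% (1.94 to 5.81, on 12 matches) and 2.88%, with overlapping intervals. The highest chain, chr16:30502159-30532348, lay 18.2 kb from the nearest coding start of Tmem44, with 13 regions over 30.2 kb and 165 CPM. The last 9 of its regions, in start-to-end order, lay inside the gene, 6 in introns and 3 in exons. Its levels were 3.86, 3.07, 2.44, 4.95, 3.91, 4.79, 4.06, 3.91, 3.11, 1.69, 2.84, 2.25 and 3.02. The next were in Xxylt1 (9 regions, 153 CPM), a glycosyltransferase that acts on Notch, and in Lpp (6 regions, 117 CPM), a focal adhesion protein. A chain with a start of the predicted gene Gm37419 within its span held 6 regions and 110 CPM, and 4 of the 6, the strongest at 5.96 among them, lay in introns of Bcl6, a transcriptional repressor. The chain of Ephb3, an ephrin receptor, lay 98.2 kb from the gene (6 regions, 110 CPM).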

How the data were processed

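ATAC-seq was run on 11 libraries. Per the study's methods, the authors trimmed reads with Trim Galore, aligned them with Bowtie2 to mm10, removed duplicates (Picard 2.17.8), called peaks with MACS2 2.2.7.1, merged peaks of all samples, dropped blacklisted ones, counted cuts per region and scaled them by TMM in edgeR 3.24.3. The version of MACS2 is not stated in the paper's methods. The authors removed regions with few cuts and 1 library of poor quality. The values deposited by the authors have no header and were read as log2 CPM averaged over samples, because 460 are below 0 and their linear values sum to 1012761. No Tn5 shift is given in the sources used here. Merging can join or split neighbouring regions, which moves chain membership.

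Distances are from edge to edge. Python 3.11.15 with pandas 2.3.3, numpy 2.4.6 and scipy 1.17.1 was used, and chaining was tested on simulated data. Intervals are 95% Wilson or order-statistic intervals. CpG-rich centres have at least 55% G and C and a CpG ratio of at least 0.6. Text names the 20 highest chains, the 5 with most regions, the 5 highest of chromosome 16 and up to 6 genes per list; 1 of the 20 highest chains and 1 sequence are not reported here. Members and lists were chosen with earlier results of these data known. No test between groups was made, since no value per sample was used.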

Additional observations from a re-analysis of the deposited data

How the results depend on the processing

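No paired analysis was possible because each region has a single pooled value. The 3380 members depended on the rule: there were 327 with a gap of 2.5 kb, 16612 with 10 kb, 22985 with the widest gap tried, 7104 and 498 with at least 4 and 8 regions per chain, 1133 and 79 among regions at least 300 and 500 bp wide, and 2046 when regions within 500 bp were joined. The other 6 settings gave 2339 to 3976. Members were higher in level than single regions in all 9 settings, by 0.63 with a gap of 2.5 kb, 0.82 with at least 8 regions, 0.64 and 0.86 at the widths of 300 and 500 bp, 0.41 within width bins and 0.43 per bp. The AP-1 share of members (single regions beside it) was 12.8% (14.2%) with a gap of 2.5 kb, 5.06% (12.8%) at 500 bp of width, on 79 members, 25.5% (23.9%) over whole regions, 9.0% (8.3%) in the central 100 bp and 18.5% (17.7%) with any middle base; the order of members and single regions thus turned in the first 2, and in the 10 kb setting at 14.1% (14.2%). The share of the 7 gene lists was 45.4% (all coding genes 9.32%) with a gap of 10 kb and 36.9% (6.03%) with at least 4 regions. Of the 20 highest chains, 11, 6 and 8 were among the 20 highest by mean, by number of regions and by CPM per kb. In alternatives chosen after seeing the data, the CTCF share of members stayed below that of single regions in 4 of 4 settings and the TEAD share above it in 4 of 4, by 2.67 percentage points with at least 8 regions and 2.57 at 300 bp of width against 0.96 as reported. Depth is unknown, so its effect could not be measured.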
